A study of Mus musculus with 16 samples.

Results

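The 10 genes described here belong to the integrated stress response, the programme run by the transcription factor ATF4: Atf3, Atf4, Atf5, Ddit3, Trib3, Nupr1, Chac1, Asns, Cebpb and Vldlr. They were chosen by name, as 10 of the 53090 genes in the tables, and every one of them had a row. Nupr1 entered the set with its pattern in culture already known, so its rise in culture is given as a description and supports nothing else. RNA was sequenced from 16 mouse libraries, 4 in each of 4 groups. The Tn groups were naive CD4+ T cells isolated magnetically from the spleen of wild-type (WT) C57BL/6 mice or of Aim2-/- mice, a whole-body knockout on the same background of AIM2, a sensor of cytosolic DNA. The Treg groups were such cells of either genotype after 2 days of culture with anti-CD3 and anti-CD28 antibodies, TGF-beta and IL-2. Both Treg groups thus share receptor stimulation, cytokines and time in culture, and these cannot be told apart in Tn against Treg. The labels do not say whether the 4 libraries of a group came from separate mice, and p-values then measure only the spread between these libraries.

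In the integrated stress response, kinases that sense missing amino acids, misfolded proteins, viral RNA or heme shortage phosphorylate the initiation factor eIF2. Most translation then slows, while the mRNA of Atf4 is translated better, and the ATF4 protein switches on genes for amino acid synthesis, transport and redox balance, together with genes that shut the response off or lead to cell death. Because ATF4 is set largely by translation, its mRNA need not follow its protein, and neither protein nor eIF2 phosphorylation was measured here. In T cells, ATF4 is known for supporting amino acid uptake and synthesis after activation.

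Library totals ran from 22516424 to 34533316 expected counts, so that 3 counts in a library equal 0.0869 to 0.133 CPM, the read count scaled to a fixed library total. Aim2 itself lay between 32.3 and 43.3 CPM in the 8 WT libraries and between 6.61 and 10.8 CPM in the 8 Aim2-/- libraries, so reads of the gene remained in the knockout. Foxp3, the transcription factor of regulatory T cells, lay between 1.98 and 4.02 CPM in Tn and between 278 and 573 CPM in Treg. Of 4 B cell markers, Ms4a1 was at 0 in every library, and the list summed to at most 2.21 CPM in Tn and 1.13 CPM in Treg. Myeloid markers (5 genes) summed to 12.5 to 20.1 CPM in Tn and to 1.72 to 3.51 CPM in Treg, where Lyz2 was at 0. CD8 T and NK cell markers (4 genes) summed to 10.7 to 18.9 CPM in Tn and to 2.26 to 4.08 CPM in Treg, with Ncr1 at 0 there. The 4 erythroid markers summed to 1.19 to 3.90 CPM in WT Tn, 4.91 to 7.75 CPM in Aim2-/- Tn and at most 0.116 CPM in Treg. These lists fell together in culture, and their part in the results was not tested. In bulk RNA, fewer cells of a type and less RNA per cell cannot be told apart.

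ATF4 works with C/EBP proteins at a composite C/EBP-ATF element, and the promoters of the set show which genes carry its letters near their start. All 10 genes matched RefSeq promoters (12 windows, since Atf5 and Vldlr have more than 1 start), and the 250 bases before each start were searched on both strands for TGATGNAA. It occurred at 5 of the 10 genes, against 3.45% of all 32851 promoters in the table. The 5 matches follow, on the strand that reads TGATGNAA, 5′ to 3′, with the 8 matching bases in capitals and 10 bases on either side (GRCm38).
Asns (chr6:7693215-7693242, minus strand): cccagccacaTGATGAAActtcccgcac
Chac1 (chr2:119351039-119351066, minus strand): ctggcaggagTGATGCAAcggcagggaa
Atf3 (chr1:191183426-191183453, plus strand): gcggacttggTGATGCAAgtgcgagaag
Nupr1 (chr7:126625563-126625590, plus strand): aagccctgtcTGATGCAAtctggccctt
Vldlr (chr19:27216810-27216837, minus strand): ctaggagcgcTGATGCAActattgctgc
The Asns match began 23 bases before the start, those of Atf3 and Nupr1 110 bases before it, that of Chac1 193 bases and that of Vldlr 200 bases. The Asns match read TGATGAAA and the other 4 read TGATGCAA. Only the Asns match read in the direction of its gene. By GENCODE M21 the Asns, Nupr1 and Vldlr matches fell inside an annotated exon, whereas those of Atf3 and Chac1 did not. A letter match is a description of the window and no measure of binding.

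Chac1 and Trib3 are set side by side because both varied widely among the Treg libraries. The searched window of Chac1 holds an exact TGATGNAA and that of Trib3 does not. Asns and Atf3 also varied widely and hold it, and so does Nupr1, which varied less. Variants of the element and bases outside the windows were not searched, and a link between the element and the spread was not tested. The Chac1 and Trib3 windows are printed in the direction of the gene, without annotated exons. The capitals in Chac1 mark the element, which reads from the opposite strand.
Chac1 (chr2:119350992-119351228, plus strand): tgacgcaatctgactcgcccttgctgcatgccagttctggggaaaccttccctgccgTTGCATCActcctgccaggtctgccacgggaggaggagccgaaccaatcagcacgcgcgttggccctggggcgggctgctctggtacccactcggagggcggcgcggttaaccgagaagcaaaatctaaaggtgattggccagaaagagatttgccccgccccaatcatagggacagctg
Trib3 (chr2:152344061-152344310, minus strand): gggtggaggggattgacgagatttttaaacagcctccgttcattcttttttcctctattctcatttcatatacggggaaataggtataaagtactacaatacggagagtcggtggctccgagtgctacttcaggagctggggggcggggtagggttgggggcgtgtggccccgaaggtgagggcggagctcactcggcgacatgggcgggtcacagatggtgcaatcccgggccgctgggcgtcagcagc
The windows of Atf4, Atf5, Ddit3 and Cebpb held no TGATGNAA either. A CRE-like element, TNACGTCA, was found in the Atf3 window alone, beginning 10 bases before the start and apart from the composite element, against 2.52% of all promoters.

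The set was uneven in level. Per kilobase of exon, Atf4 led in all 4 groups, with a mean of 196 CPM per kb in WT Tn and 127 CPM per kb in WT Treg. In WT Tn the next was Ddit3 at 18.9 CPM per kb, followed by Cebpb at 8.94, Trib3 at 3.88, Atf3 at 2.81 and Atf5 at 2.55 CPM per kb, with Asns, Chac1, Nupr1 and Vldlr at or near 0. Trib3, Atf3 and Atf5 overlapped between libraries in that order, so their ranks are not set apart. In WT Treg the order behind Atf4 was another one. Asns came to 12.9 CPM per kb, Cebpb to 11.2, Nupr1 to 11.1, Trib3 to 5.54, Atf3 to 4.85, Ddit3 to 4.73, Atf5 to 2.87 and Chac1 to 1.60 CPM per kb. Asns alone ran from 4.96 to 25.6 CPM per kb among the 4 WT Treg libraries, which spans the means of every gene from Cebpb to Trib3. The Aim2-/- groups held the same leading genes, with Atf4 at 233 CPM per kb in Tn and 138 CPM per kb in Treg, and Ddit3 second in Tn and Asns second in Treg.

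**Figure D1:**
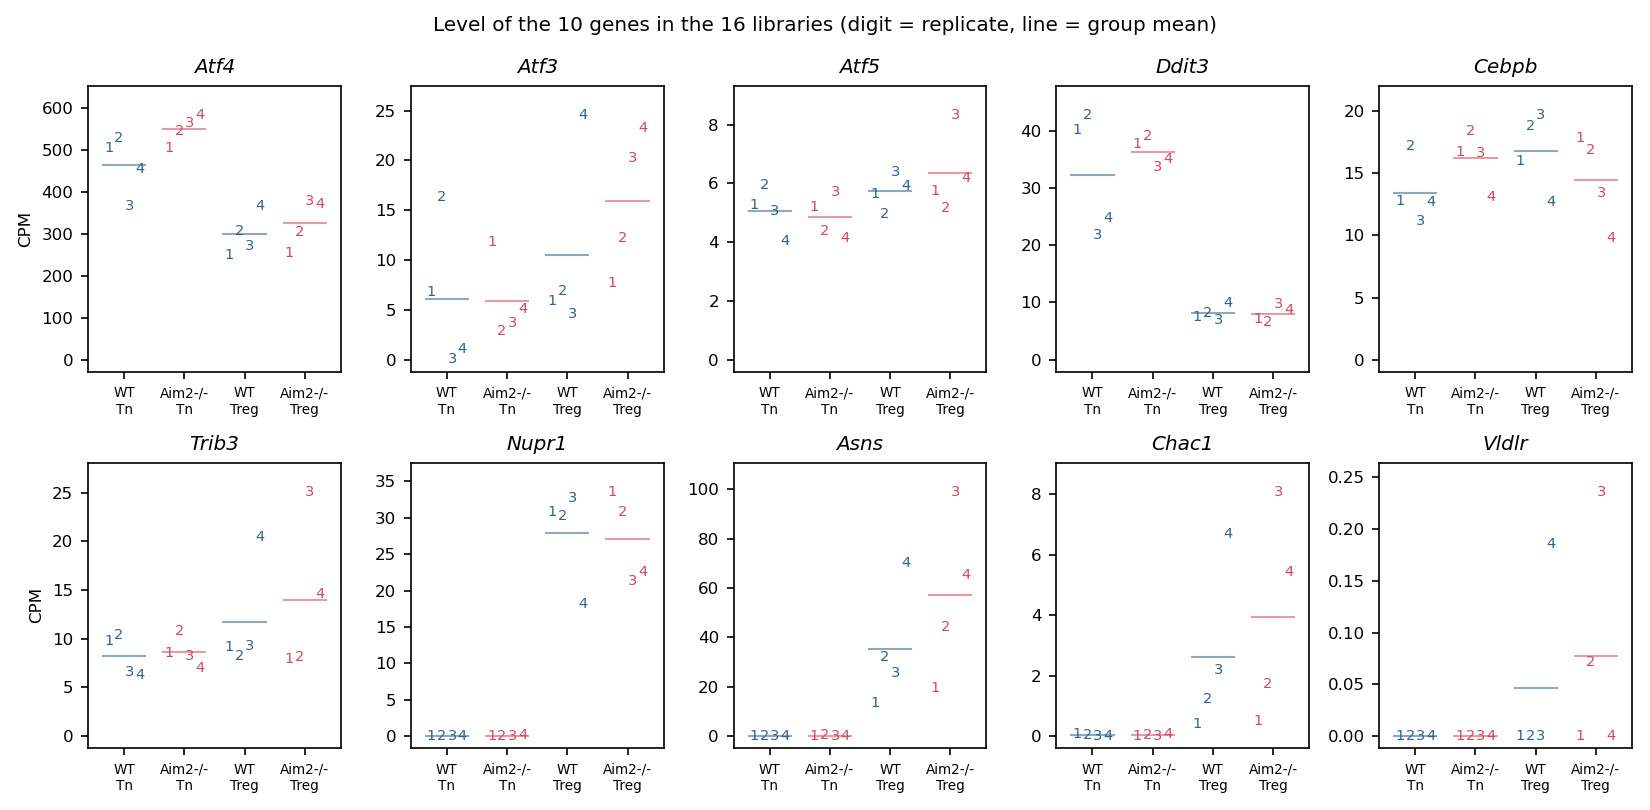
Level of each of the 10 genes in CPM (vertical axes, linear, each with its own range) in WT Tn, Aim2-/- Tn, WT Treg and Aim2-/- Treg; each digit is 1 library, named by its replicate number, and each line is a group mean. Atf4 and Ddit3 lie lower in Treg, Nupr1, Asns and Chac1 lie near 0 in Tn and above it in Treg, and in Treg the libraries WT 4, Aim2-/- 3 and Aim2-/- 4 stand at one end for most genes.

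The first question was how the set differed between naive cells and cells in Treg-polarising culture within each genotype. Ddit3 and Atf4 fell in both genotypes, Atf5, Cebpb and Trib3 passed the test in neither, and Asns, Chac1 and Nupr1 lay near 0 in Tn and above it in Treg. These last 3 passed the filter on low counts only through their Treg libraries and so had to differ if tested. Their levels are given as a description with no test, and Vldlr was not tested. Of the other 6 genes, 2 were lower and none higher in WT Treg by edgeR, DESeq2 and limma-voom, beside 37.7% of all 13675 tested genes higher and 39.2% lower by edgeR, that is 76.9% called. In Aim2-/- 1 was higher and 2 lower, beside 39.1% and 40.2% of 13713 genes, that is 79.3% called. The libraries did not overlap for Nupr1, Chac1, Asns and Ddit3 in either genotype, nor for Atf4 in Aim2-/-, beside 72.9% of all genes in WT and 74.8% in Aim2-/-. For the 6 genes the share called was thus no larger than that of all genes. These are not like sets, since all genes include those that passed the filter only through 1 group. The missing overlap of Nupr1, Chac1 and Asns came largely with that filter and is no separate result.

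Atf4, the central transcription factor (chr15:80255184-80257541, plus strand), fell although it stayed the most abundant of the set. It measured 503, 528, 366 and 454 CPM in WT Tn against 249, 307, 272 and 367 CPM in WT Treg, and 505, 544, 563 and 582 CPM in Aim2-/- Tn against 253, 304, 378 and 371 CPM in Aim2-/- Treg. The lowest WT Tn library lay just below the highest WT Treg library, and the Aim2-/- groups did not overlap. The log2 fold change (Treg over Tn) was -0.66 ± 0.14 (SE, n = 4 and 4; adjusted p = 0.0019) in WT and -0.76 ± 0.12 (adjusted p = 0.00013) in Aim2-/- by the quasi-likelihood test of edgeR after Benjamini-Hochberg adjustment, from which all adjusted p-values here come. In replicates 3 and 4 alone the WT call was lost (-0.39, adjusted p = 0.11).

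Ddit3, which encodes CHOP, a factor that promotes cell death under prolonged stress (chr10:127290774-127296288, plus strand), fell most. The WT libraries held 40.2, 42.7, 21.8 and 24.7 CPM in Tn against 7.49, 8.19, 6.94 and 9.82 CPM in Treg. The Aim2-/- libraries held 37.6, 39.0, 33.6 and 35.1 CPM in Tn against 7.13, 6.57, 9.80 and 8.73 CPM in Treg. Every Treg library lay below every Tn library, and the fall was 4.08-fold in WT and 4.54-fold in Aim2-/-. The log2 fold change was -2.03 ± 0.23 (adjusted p = 2.8e-05) in WT and -2.18 ± 0.13 (adjusted p = 3.8e-08) in Aim2-/-. Ddit3 shares 68 of its 1713 exonic bases with Mars, the methionyl-tRNA synthetase gene on the opposite strand. Mars moved the other way, from 58.2 ± 5.08 CPM (SD, n = 4) in WT Tn to 228 ± 19.8 CPM in WT Treg.

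Nupr1, a small chromatin-associated stress protein (chr7:126623249-126630861, minus strand), was not seen in any WT Tn library and held 7 counts over the 4 Aim2-/- Tn libraries, none with more than 3. The 4 WT Treg libraries held 30.8, 30.2, 32.7 and 18.1 CPM, and the 4 Aim2-/- Treg libraries 33.6, 30.7, 21.3 and 22.6 CPM. The WT Treg mean of 27.9 CPM was at least 248-fold higher than 3 counts per Tn library (0.113 CPM on average). In Aim2-/- the ratio of summed counts was 444, with a 95% exact binomial interval of 215 to 1106 that covers counting error only.

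Asns, asparagine synthetase and a classic amino acid response gene (chr6:7675169-7693254, minus strand), had 1 to 14 counts per Tn library, at most 0.441 CPM. The 4 WT Treg libraries held 13.6, 32.1, 25.7 and 70.0 CPM, and the 4 Aim2-/- Treg libraries 19.4, 44.2, 98.9 and 65.2 CPM. All Treg libraries lay far above all Tn libraries, and they differed among themselves by 5.17-fold in WT and 5.09-fold in Aim2-/-. The log2 fold change was 7.65 ± 0.68 in WT and 8.06 ± 0.66 in Aim2-/-, where it was 8.83 without Aim2-/- Tn 2, the library with 14 counts.

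Chac1, an enzyme that breaks down glutathione (chr2:119351229-119354381, plus strand), had 3 counts over the 4 WT Tn libraries and 3 over the 4 Aim2-/- Tn libraries. The 4 WT Treg libraries held 0.405, 1.22, 2.17 and 6.70 CPM, and the 4 Aim2-/- Treg libraries 0.490, 1.72, 8.09 and 5.42 CPM. Even the lowest Treg library, with 12 counts, lay above the highest Tn library, with 2, and the 4 libraries of a Treg group spread over 16.6-fold in WT and 16.5-fold in Aim2-/-. The ratio of summed counts was 88.3 (95% exact binomial interval 29.9 to 430 for counting error) in WT and 155 (52.7 to 755) in Aim2-/-. WT Treg 4 alone held 181 of the 307 counts of WT Treg, and Aim2-/- Treg 3 held 240 of the 447 counts of Aim2-/- Treg. Without those libraries the fitted log2 difference, which is no bound, went from 6.31 to 5.29 in WT and from 7.01 to 6.40 in Aim2-/-, and without WT Tn 1 or Aim2-/- Tn 4, which held 2 counts each, it went to 7.24 and 7.91.

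Atf3, an immediate stress-induced repressor (chr1:191170296-191218039, minus strand), was called higher in Treg of Aim2-/- cells, and that call rested on few libraries. It measured 6.77, 16.4, 0.0845 and 1.02 CPM in WT Tn, 11.8, 2.84, 3.64 and 5.12 CPM in Aim2-/- Tn, 5.84, 6.89, 4.56 and 24.5 CPM in WT Treg and 7.73, 12.2, 20.3 and 23.3 CPM in Aim2-/- Treg. The groups overlapped in both genotypes. The log2 fold change was 1.43 ± 0.46 (adjusted p = 0.015) in Aim2-/- and 0.75 ± 1.04 (adjusted p = 0.53) in WT. The Aim2-/- call was lost without Aim2-/- Tn 2 (log2 1.20, adjusted p = 0.055), without Aim2-/- Tn 3 (1.27, adjusted p = 0.055) and without Aim2-/- Treg 4 (1.21, adjusted p = 0.068). In WT the direction turned without WT Treg 4, to -0.09.

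Trib3, a pseudokinase that restrains ATF4 (chr2:152337422-152344032, minus strand), ran from 6.31 to 10.8 CPM in Tn and from 7.96 to 25.1 CPM in Treg. Only the 3 libraries WT Treg 4, Aim2-/- Treg 3 and Aim2-/- Treg 4 (20.4, 25.1 and 14.6 CPM) exceeded the range in Tn. The log2 fold change was 0.48 ± 0.31 (adjusted p = 0.19) in WT and 0.68 ± 0.34 (adjusted p = 0.088) in Aim2-/-, and the latter passed the threshold without Aim2-/- Treg 1 (0.89, adjusted p = 0.032) or without Aim2-/- Treg 2 (0.89, adjusted p = 0.037). Atf5, a relative of ATF4 tied to mitochondrial stress (chr7:44812256-44816658, minus strand), stayed between 4.06 and 8.32 CPM throughout, with log2 fold changes of 0.14 ± 0.16 (adjusted p = 0.43) in WT and 0.38 ± 0.19 (adjusted p = 0.079) in Aim2-/-. The Aim2-/- value passed the threshold without Aim2-/- Tn 3 (0.47, adjusted p = 0.049) or without Aim2-/- Treg 2 (0.48, adjusted p = 0.043).

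Cebpb, a C/EBP partner of ATF4 (chr2:167688915-167690418, plus strand), lay between 9.80 and 19.7 CPM in all 16 libraries. Its log2 fold change was 0.29 ± 0.17 (adjusted p = 0.15) in WT and -0.17 ± 0.18 (adjusted p = 0.41) in Aim2-/-. The WT value passed the threshold without WT Tn 2 (0.45, adjusted p = 0.03) or without WT Treg 4 (0.41, adjusted p = 0.04). Cebpb shares 312 of its 1504 exonic bases with Tmem189 on the opposite strand, and it alone of the set had counts that were not whole, in all 16 libraries, so its level is uncertain. Vldlr, the very low density lipoprotein receptor (chr19:27216484-27254231, plus strand), was at 0 in 13 libraries and had 5 counts in WT Treg 4, 2 in Aim2-/- Treg 2 and 7 in Aim2-/- Treg 3.

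**Figure D2:**
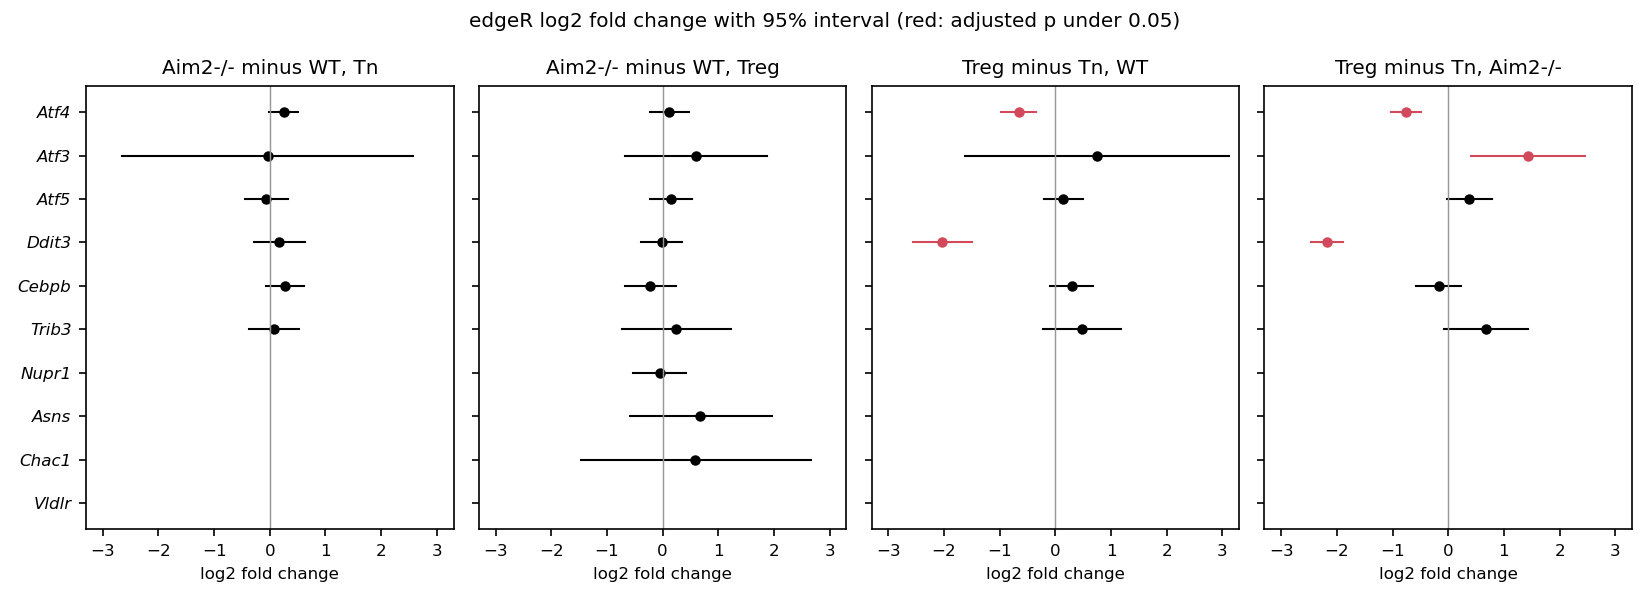
edgeR log2 fold changes (points) with 95% intervals (lines) for genotype (Aim2-/- minus WT) within Tn and Treg and for culture (Treg minus Tn) within each genotype; red marks an adjusted p under 0.05. Every genotype interval includes 0, Atf4 and Ddit3 are lower in Treg in both genotypes, and Asns, Chac1 and Nupr1 are left out of the culture panels because they were near 0 in Tn. Genes that were not tested have no point.

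The wider pathway changed in culture in a mixed way. The lists used here were written from general knowledge of the response, and up to 3 genes of each are named, those with the smallest p. All 20 cytosolic tRNA synthetases, which charge tRNAs and include many ATF4 targets, were higher in Treg in both genotypes, with a median log2 fold change of 1.57 in WT and 1.62 in Aim2-/- (all tested genes: -0.05 and -0.04). Kars, Eprs and Mars had the smallest p in WT, with log2 fold changes of 1.54 ± 0.06, 1.65 ± 0.07 and 1.94 ± 0.09. The largest rise of the list in WT was 2.04. Of the amino acid supply genes known as ATF4 targets, 13 of 16 tested were higher and 1 lower in WT, and 15 of 17 were higher and 1 lower in Aim2-/-, with medians of 2.43 and 2.84, beside 37.7% of all genes higher and 39.2% lower in WT and 39.1% and 40.2% in Aim2-/-, the shares against which all list counts stand. Of this list Cth in both genotypes and Aldh1l2 in Aim2-/- were at or under 3 counts per Tn library. These passed the filter on low counts only through their Treg libraries and so had to differ if tested. Slc6a9 was also low in Tn, at 0.237 to 0.553 CPM in WT and 0.225 to 0.504 CPM in Aim2-/-, and passed only with its Treg libraries. The counts of this list include these genes, so they are no like set to all genes. The serine synthesis genes Phgdh and Psat1 rose by 2.74 ± 0.07 and 3.65 ± 0.14 on the log2 scale in WT, and Shmt2, which passes serine carbon to folate, by 2.67 ± 0.09.

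The upstream machinery split in 2 directions. Of 17 genes for eIF2 kinases, eIF2 and eIF2B subunits and phosphatase regulators, 13 were higher and 3 lower in each genotype, beside 76.9% of all genes called in WT and 79.3% in Aim2-/-. Ppp1r15a, known as GADD34, the stress-induced subunit that brings a phosphatase to eIF2 and ends the response, had the smallest p of the list. It fell from 1310.2 ± 197 CPM (SD, n = 4) in WT Tn to 27.1 ± 1.20 CPM in WT Treg, a log2 fold change of -5.63 ± 0.13 (adjusted p = 7.2e-10). In Aim2-/- it fell by 5.52 ± 0.10 on the log2 scale (adjusted p = 5e-12). Eif2s1, the eIF2 subunit that is phosphorylated, and Eif2b5, a subunit of its exchange factor, rose by 1.79 ± 0.08 and 1.13 ± 0.06 in WT.

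Genes known as ATF4 or CHOP targets outside amino acid supply were called 3 higher and 3 lower of 15 in WT, and 7 higher and 4 lower in Aim2-/-, whereas 76.9% and 79.3% of all genes were called. Bbc3, a death-promoting BH3 protein, fell by 2.83 ± 0.13 on the log2 scale in WT and by 3.05 ± 0.15 in Aim2-/-. Eif4ebp1, an inhibitor of translation initiation, and Ero1l, an oxidase of the endoplasmic reticulum (ER), rose in WT by 3.11 ± 0.25 and 1.52 ± 0.11. The IRE1 and ATF6 arm of the unfolded protein response had 11 of 20 genes higher and 6 lower in WT, and 13 higher and 6 lower in Aim2-/-. Within it the genes for protein folding in the ER moved in both directions, since Dnajb9 fell by 4.26 ± 0.24 and Pdia6 rose by 1.80 ± 0.13 in WT. Mitochondrial stress genes were higher for 8 of 9 in both genotypes, led by the chaperonin gene Hspd1 at 2.58 ± 0.12 in WT. Relatives of the C/EBP and ATF/CREB families were 2 higher and 4 lower of 11 in WT, and 4 higher and 4 lower in Aim2-/-.

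**Figure D3:**
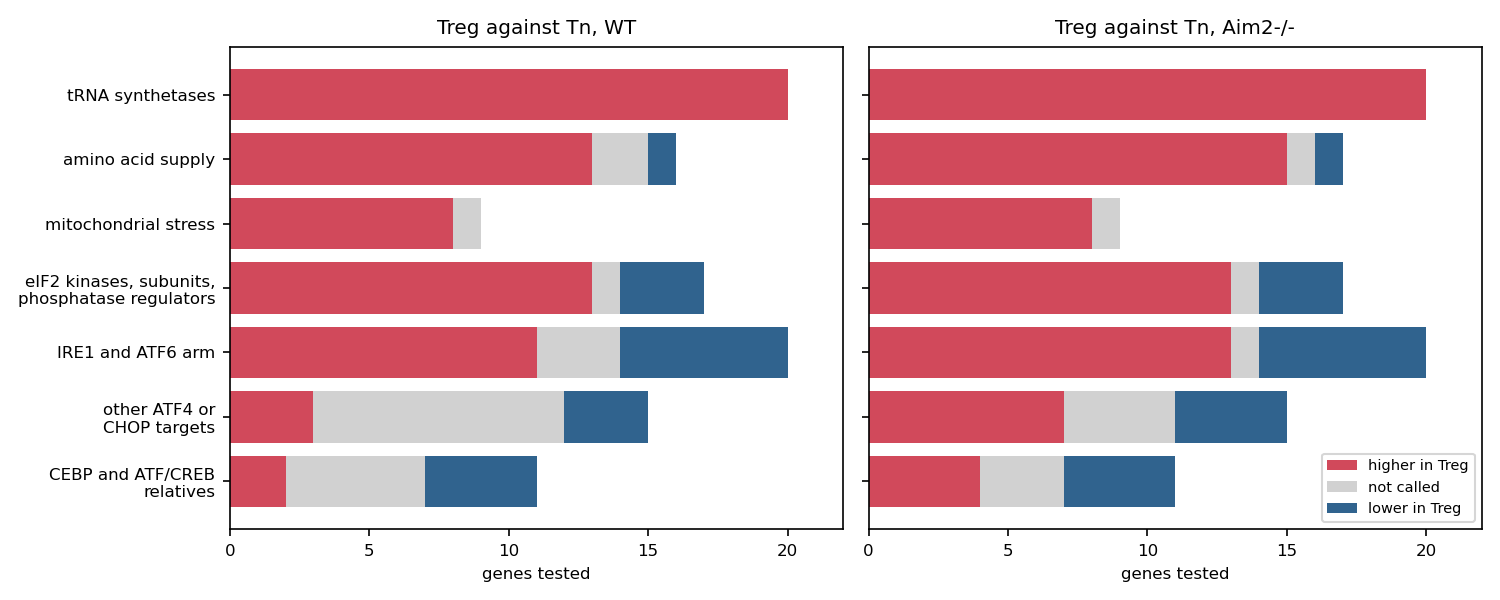
Number of genes (horizontal axis) of each pathway list tested in Treg against Tn and called higher, lower or not called (edgeR adjusted p under 0.05), for WT and Aim2-/-. All 20 tRNA synthetases are higher in both genotypes, whereas the 15 other ATF4 or CHOP targets hold 3 higher and 3 lower in WT.

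The second question was whether loss of Aim2 moved the set. In naive cells none of the 6 tested genes was called, by edgeR, by limma-voom or by DESeq2, beside 0.231% of 13441 genes by edgeR, and none had an unadjusted p under 0.05 by edgeR (all genes: 10.3%). Atf4 came nearest. Its 4 Aim2-/- Tn libraries (505 to 582 CPM) lay above 3 of the 4 WT Tn libraries (366 to 528 CPM), and the log2 fold change (Aim2-/- over WT) was 0.25 ± 0.12 (95% interval -0.01 to 0.51, adjusted p = 0.49). Cebpb differed by 0.28 ± 0.15 (-0.07 to 0.62), Ddit3 by 0.17 ± 0.20 (-0.28 to 0.63), Trib3 by 0.07 ± 0.20 (-0.38 to 0.52) and Atf5 by -0.06 ± 0.17 (-0.44 to 0.33). For these 5 genes the intervals together span -0.44 to 0.63. Atf3, at -0.04 ± 1.11 (-2.65 to 2.57), was too uneven between libraries for a difference of several fold to be seen. Between the same naive groups the summed erythroid markers did not overlap, 3 of the 4 (Hbb-bs, Hba-a1 and Hba-a2) had an unadjusted p under 0.05 and none was called. The B cell gene Cd79a and the myeloid gene Lyz2 were higher in all Aim2-/- Tn libraries without being called. The summed B cell markers overlapped, and so did the summed myeloid markers (12.5 to 20.1 CPM in WT Tn, 13.5 to 15.5 CPM in Aim2-/- Tn). Of the 5 myeloid markers, 3 had a log2 fold change above 0, with a median of 0.03. Their part in the values of the set was not tested.

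In Treg none of the 9 tested genes was called either, by the same 3 tools, beside 0.219% of 13221 genes, and none had an unadjusted p under 0.05 (all genes: 2.31%). All adjusted p-values were 1. The WT and Aim2-/- libraries overlapped for every tested gene of the set, in Tn and in Treg, whereas 6.95% of all tested genes in Tn and 2.26% in Treg did not overlap. Ddit3 (-0.01 ± 0.16, 95% interval -0.38 to 0.35), Nupr1 (-0.05 ± 0.21, -0.53 to 0.42), Atf4 (0.12 ± 0.15, -0.22 to 0.47), Atf5 (0.15 ± 0.16, -0.22 to 0.52) and Cebpb (-0.22 ± 0.20, -0.67 to 0.24) had intervals that together span -0.67 to 0.52. Asns (0.68 ± 0.56, -0.59 to 1.96), Atf3 (0.60 ± 0.56, -0.68 to 1.88), Chac1 (0.59 ± 0.91, -1.47 to 2.66) and Trib3 (0.24 ± 0.43, -0.73 to 1.22) had higher means in Aim2-/- cells and wide intervals. For each of these 4 the difference was smaller than the SD among libraries of a genotype. Without WT Treg 4 the Atf3 difference was 1.46. Without Aim2-/- Treg 3 the direction turned for Chac1 (-0.04) and Trib3 (-0.21).

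None of the pathway lists held a gene called for genotype in Tn or in Treg. The smallest adjusted p was that of Atf6, an ER stress sensor whose gene lies 2.5 Mb from Aim2 on chromosome 1. The Atf6 difference was -0.77 ± 0.19 (adjusted p = 0.28) in Tn and -0.62 ± 0.11 (adjusted p = 0.14) in Treg. Atf3, of the set, lies 17.7 Mb from Aim2 on the same chromosome. Whether these positions had a part in the values was not tested. All 20 tRNA synthetases had a log2 fold change above 0 in Treg, with a median of 0.09 beside 0.00 for all genes, and none passed the test. In the amino acid supply list 17 of 19 were above 0, with a median of 0.17. These genes share libraries, so their common sign is not a set of separate observations.

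The third question was whether the change in culture differed between genotypes. None of the 9 tested genes had an interaction past the threshold, by edgeR or by DESeq2 or limma-voom, beside 0.0205% of 14669 genes (3 genes), and all adjusted p-values were 1. Nupr1 alone had an unadjusted p under 0.05 by edgeR, against 3.49% of all genes. Its WT Tn libraries were all at 0 and its Aim2-/- Tn libraries held at most 3 counts, so no ratio of the 2 changes is given. For Atf4 the difference of the changes was -0.12 ± 0.20 (95% interval -0.54 to 0.30), for Ddit3 -0.17 ± 0.27 (-0.75 to 0.41) and for Asns 0.40 ± 1.51 (-2.83 to 3.63).

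All 9 tested genes of the set varied among Treg libraries more than the median gene, and 4 stood near the top. The within-group SD of log2(CPM + 0.1) in Treg was 1.64 for Chac1, 0.99 for Asns, 0.91 for Atf3 and 0.70 for Trib3, above 99.7%, 98.4%, 97.9% and 95.4% of the 13221 tested genes (median SD 0.17). Nupr1 (0.36), Cebpb (0.34), Atf4 (0.26), Ddit3 (0.24) and Atf5 (0.23) were above 79.1%, 77.2%, 67.7%, 64.4% and 63.5% of genes. The same 3 libraries, WT Treg 4, Aim2-/- Treg 3 and Aim2-/- Treg 4, were the 3 highest for Asns, Chac1, Atf3, Trib3, Atf4 and Ddit3, and the 3 lowest for Nupr1 and Cebpb. They were singled out after the values were seen, so this is a description with no test. Among all 13221 tested genes, 14.3% had these 3 libraries highest and 15.9% had them lowest, so the split runs through much of the transcriptome.

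Foxp3 was lowest in these 3 libraries, and low Foxp3 was part of how they were picked, so this is no separate observation. Foxp3 measured 278, 329 and 288 CPM in those 3 libraries and 496 to 573 CPM in the other 5. The mean of the 4 Treg markers (Foxp3, Il2ra, Ctla4 and Ikzf2) did not follow the split. On the log2 scale it stood at 0.06, 0.07 and -0.24 in WT 4, Aim2-/- 3 and Aim2-/- 4, and between -0.14 and 0.15 in the others. Some other list means followed the same libraries. Amino acid supply genes (19 tested) stood at 0.44, 0.59 and 0.37 above their mean over the 8 Treg libraries in WT 4, Aim2-/- 3 and Aim2-/- 4 on the log2 scale, and between -0.60 and 0.00 in the other 5. The IRE1 and ATF6 arm stood at 0.29, 0.15 and 0.23 in the same 3 libraries and between -0.25 and 0.09 in the others. The tRNA synthetases stood at 0.16, 0.19 and 0.19 and between -0.19 and 0.00, and the eIF2 list stayed between -0.08 and 0.06 in all 8. What set these libraries apart was not tested, and the labels name no batch.

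Without the 3 libraries, a choice made after the values were seen, the culture call of Atf3 in Aim2-/- was lost (0.80, adjusted p = 0.23) and those of Atf4 and Ddit3 were kept. No gene of the set was then called for genotype in Treg. The Treg difference between genotypes was 0.42 for Asns, 0.79 for Atf3, -0.20 for Chac1 and -0.14 for Trib3, all with an adjusted p of 1.

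**Figure D4:**
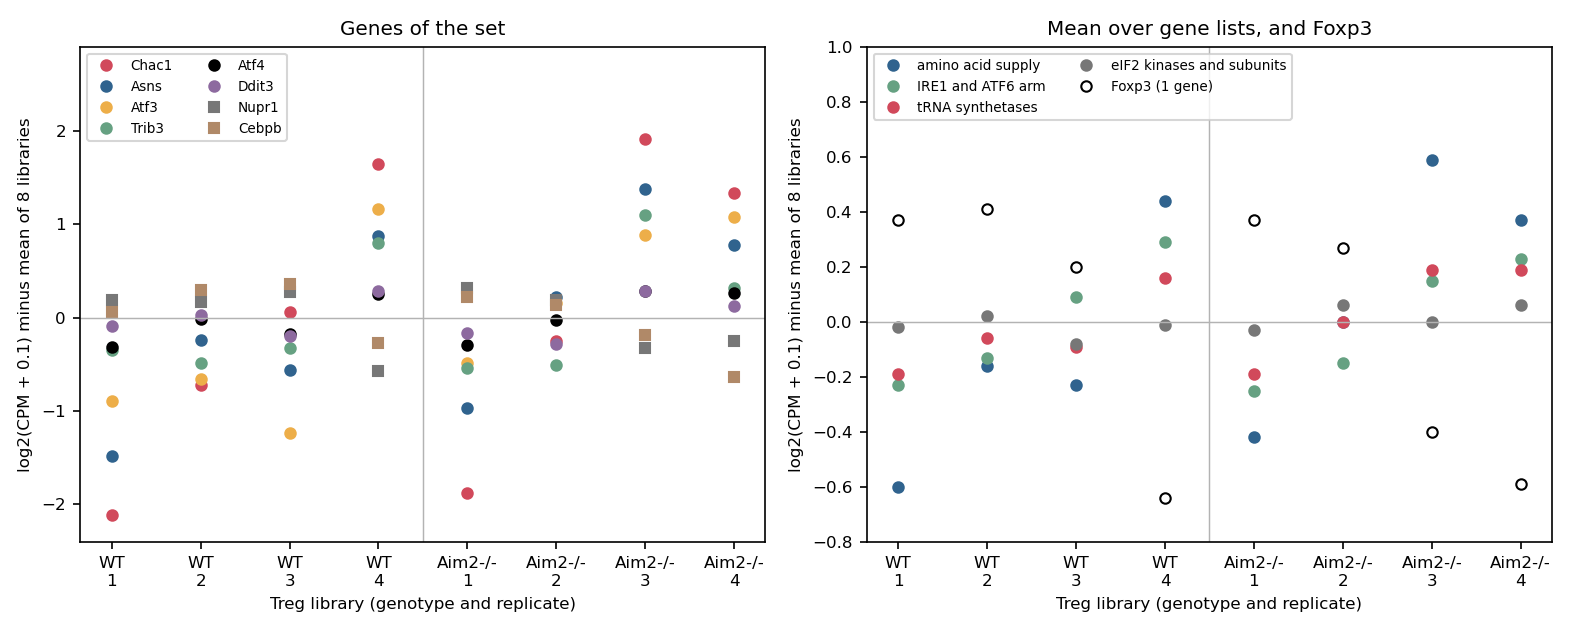
Deviation of each Treg library from the mean of the 8 Treg libraries (vertical axis, log2(CPM + 0.1)) for 8 genes of the set (left) and for the mean over gene lists and Foxp3 (right); the vertical line parts WT from Aim2-/- libraries, whose replicates have no order. In WT 4, Aim2-/- 3 and Aim2-/- 4 the genes Chac1, Asns, Atf3, Trib3, Atf4 and Ddit3 lie above 0, and Nupr1, Cebpb and Foxp3 below it.

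Naive libraries were uneven as well. Atf3 had a within-group SD of 2.13 in Tn, above 99.9% of the 13441 tested genes (median SD 0.21), since WT Tn 3 held 2 counts and WT Tn 2 held 414. Ddit3 and Trib3 were also lower in WT Tn 3 and 4 than in WT Tn 1 and 2. Ddit3 measured 40.2 and 42.7 CPM in WT Tn 1 and 2 against 21.8 and 24.7 CPM in WT Tn 3 and 4, and Trib3 measured 9.74 and 10.4 against 6.55 and 6.31 CPM. This split of the WT Tn libraries was not particular to these genes. A chi-squared value per gene over the transcriptome, larger for less alike libraries, was 13.5 between WT Tn 1 and 2. It was 11.5 between WT Tn 3 and 4, and 73.3 to 94.2 between libraries of the different pairs. The Aim2-/- Tn libraries were closer together for Ddit3, at 33.6 to 39.0 CPM. Among replicates 3 and 4 alone, Ddit3 was higher in Aim2-/- Tn than in WT Tn by 0.55 on the log2 scale (adjusted p = 0.039), and among replicates 1 and 2 alone it differed by -0.10 (adjusted p = 0.65). Replicates 3 and 4 alone called 499 of 13503 genes, against 31 of 13441 in the reported fit.

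Over all 16 libraries, after group means were removed, the 9 tested members did not move as one. The Pearson correlation of each with the mean standardised deviation of the 9, which includes the gene itself, was 0.89 for Ddit3, 0.86 for Atf4, 0.83 for Trib3, 0.79 for Asns, 0.75 for Chac1, 0.75 for Atf3 and 0.59 for Atf5, and it was -0.02 for Cebpb and -0.29 for Nupr1. The 5 genes outside the set with the most similar pattern were Tjap1 (0.93), Stk11 (0.91), Epop (0.91), Dgcr14 (0.91) and Mapkapk5 (0.91) of 14669 genes. In the naive libraries Nupr1, Chac1 and Asns were near 0, so their deviations there rest on few counts. Within the 8 Treg libraries alone, the correlation with Asns was 0.98 for Atf4, 0.97 for Chac1 and 0.86 for Atf3. It was 0.84 for Trib3, 0.79 for Ddit3, 0.47 for Atf5, -0.60 for Cebpb and -0.87 for Nupr1. These values describe the same libraries that split above and carry no test.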

How the data were processed

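The authors aligned 51-nt single-end reads of stranded mRNA libraries with STAR and quantified them with RSEM on GRCm38 and GENCODE annotation; tool versions and the strand setting are not given in the sources used here. The deposited tables hold expected counts per gene and library, which were rounded to whole numbers. Genes that reached 10 counts in 4 or more libraries of a comparison were fitted across the whole table with edgeR 4.0.16 (TMM, robust quasi-likelihood F test, Benjamini-Hochberg adjusted p under 0.05 called). SE was taken from the F statistic, and intervals are 95%. CPM used TMM factors of all 16 libraries. A symbol with several rows was taken from the row with the highest total. limma 3.58.1, DESeq2 1.42.0, other scalings and filters, a replicate block, a term for replicates 1 and 2 against 3 and 4, either pair of replicates alone and left-out libraries were alternatives. All 10 members were named, and from each list at most the 3 genes with the smallest p. The members and lists were chosen with earlier results of these data known. Groups and replicate numbers came from sample titles. Some file names number the libraries otherwise, and every result by replicate number rests on the titles. The fits were also run on simulated counts with known changes, drawn independently for each library. These held no split among the libraries of a group, so they do not speak to the splits described above. Gene positions are from GENCODE M21, promoters from RefSeq (GRCm38.p6). Intervals of ratios cover counting error only.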

Additional observations from a re-analysis of the deposited data

Results flagged for a closer look

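In 4 of the 34 sets of 4 libraries tested (a gene in a group), 1 library lay far from the other 3 by Dixon's gap test, and chance alone gives about 1 in 20. The 34 sets share libraries and are not separate tests, so the 4 are not weighed against that rate. All 4 concerned WT Treg 4. There Atf3 measured 24.5 CPM against at most 6.89 CPM in the other WT Treg libraries, and Trib3 20.4 CPM against at most 9.29 CPM. Nupr1 measured 18.1 CPM against at least 30.2 CPM, and Vldlr 0.185 CPM (5 counts) against 0, where any single library above 0 passes by construction, so that this set says nothing beside chance. Aim2-/- Treg 3 and 4, in the other genotype, lay close to these values for Atf3 and Nupr1.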

How the results depend on the processing

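Among values recomputed for single genes of the set, 199 that were called in the reported or the alternative fit and 607 that were called in neither kept their direction and side of the threshold, 10 gained a call, 10 lost one, and 50 that were called in neither turned direction. The 199 include Nupr1, Asns and Chac1 in culture, which had to differ if tested. Calls kept for these genes are no sign of stability. Genes called for genotype in Tn were 31 and became 127 with DESeq2, 47 with no filter, 18 with at least 10 counts in every library, 51 with a term for replicates 1 and 2 against 3 and 4, 499 in replicates 3 and 4 alone, 50 with all 16 libraries in one fit and 21 to 39 without 1 library. In Treg, 29 became 52 with DESeq2, 17 with the filter on every library, 5 in replicates 3 and 4 alone and 15 to 23 without 1 library (15 without WT 2, WT 3 or Aim2-/- 2, 16 without WT 1, 18 without Aim2-/- 3). The interaction's 3 became 10 with DESeq2, 0 with the filter on every library (369 genes at an unadjusted p under 0.05, and 2 by limma-voom under the usual filter) and 2 to 5 without 1 library. With that filter, which leaves Nupr1, Asns and Chac1 untested, 2 members were called in culture in WT and 3 in Aim2-/-. In replicates 3 and 4 alone 1 member, Ddit3, was called for genotype in Tn (0.55), and the culture fall of Atf4 in WT lost its call (-0.39, adjusted p = 0.11).

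Whether the same replicate numbers pair samples was not settled, and the reported fits treat the libraries as unpaired. Correlations of same-numbered deviations ran from -0.04 to 0.40 and not every pair exceeded 0.1. Between the genotypes in Treg they were 0.40, 0.23, -0.01 and 0.35. With the replicate block, genes at an unadjusted p under 0.05 by edgeR for genotype in Treg went from 305 to 1104. The replicate block changed 1 member call, Atf3 in Aim2-/- culture (1.56, adjusted p = 0.072), and turned Atf3 in Tn (0.89). The Atf3 call was also lost with no filter (1.48), with the replicate term (1.37), in replicates 1 and 2 alone (0.46), with all 16 libraries in one fit (1.44) and with 5 Treg libraries kept (0.80). Trib3 in Aim2-/- culture gained a call with DESeq2 (0.71) and in replicates 3 and 4 alone (1.39), and Atf5 with all 16 libraries (0.39).

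Directions turned as follows, as log2 differences. For genotype in Tn, Atf3 reached 1.34 by limma-voom, 0.73 with the replicate term and 2.89 in replicates 3 and 4, where Atf5 reached 0.10. In replicates 1 and 2, Ddit3 was -0.10 and Trib3 -0.05. For genotype in Treg, replicates 1 and 2 gave Trib3 -0.11 and Nupr1 0.08, replicates 3 and 4 gave Ddit3 0.14, and 5 kept Treg libraries gave Atf5 -0.05, Trib3 -0.14, Nupr1 0.04 and Chac1 -0.20. For culture, replicates 1 and 2 gave Atf3 -0.83, Atf5 -0.06 and Trib3 -0.19 in WT and Trib3 -0.26 in Aim2-/-, where 5 kept libraries gave Trib3 -0.08 and Cebpb 0.12. For the interaction, Atf3 was -0.46 by limma-voom and -2.28 in replicates 3 and 4, Chac1 -2.53 there and -0.09 with 5 kept libraries, and Trib3 -0.05 in replicates 1 and 2 and -0.20 with 5 kept libraries.

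Leaving out 1 library gave these ranges. In Tn they were -0.65 to 1.14 for Atf3, -0.16 to 0.02 for Atf5 and -0.07 to 0.20 for Trib3. In Treg they were -0.21 to 0.65 for Trib3, -0.21 to 0.05 for Nupr1, -0.12 to 0.09 for Ddit3, -0.01 to 0.24 for Atf5, -0.04 to 1.62 for Chac1, 0.35 to 1.46 for Atf3 and 0.28 to 1.25 for Asns. For Atf3 in WT culture the range was -0.09 to 1.97. For the interaction it was -0.53 to 1.52 for Atf3, -0.26 to 0.59 for Trib3, -0.23 to 1.73 for Chac1 and -0.00 to 1.18 for Asns. The causes were not tested. Low counts in Tn limit Nupr1, Chac1, Asns and Vldlr.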

Other observations

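Genes of the pathway lists outside the set also differed between naive libraries of 1 genotype, and these were picked after their values were seen. Ddit4, an inhibitor of mTOR signalling induced by stress, measured 27.5, 22.7, 122 and 101 CPM in WT Tn and 34.0, 22.7, 76.2 and 51.4 CPM in Aim2-/- Tn, and 30.6 to 46.3 CPM in all 8 Treg libraries. Sesn2, a leucine sensor and ATF4 target, measured 26.3, 31.6, 6.76 and 6.41 CPM in WT Tn, so that WT Tn 1 and 2 were high for Sesn2 and low for Ddit4. In Treg, Sesn2 was highest in WT Treg 4, Aim2-/- Treg 3 and Aim2-/- Treg 4, at 91.5, 93.1 and 84.0 CPM, against 20.7 to 59.4 CPM in the other 5. Cebpg, a C/EBP partner of ATF4, measured 52.2, 50.2 and 49.9 CPM in those 3 libraries and 23.5 to 42.9 CPM in the others.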
